A study of Mus musculus with 4 samples.

Results

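Hedgehog signalling reaches the mesenchyme of the embryonic gut from the overlying epithelium, and 9 genes that receive it, carry it into the nucleus or report it were followed in single cells of the mouse intestine at embryonic day E12.5. They were Ptch1, Smo, Hhip, Gli1, Gli2, Gli3, Gas1, Cdon and Boc, chosen by name for their place in the pathway and not by any measured value, out of 28692 genes listed in the count matrices. Every one was detected, and all 9 passed the low-count filter in each mesenchymal, smooth muscle-like and mesothelial-like comparison of regions except Hhip in one of the groups.

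In this pathway a secreted ligand (Sonic, Indian or Desert hedgehog) binds Patched 1, which otherwise holds the transducer Smoothened inactive. Gas1, Cdon and Boc are cell surface co-receptors that help the ligand bind, while Hhip captures ligand at the membrane. Gli2 and Gli3 are the transcription factors that pass the signal on, Gli3 mainly as a repressor when ligand is absent, and Ptch1, Hhip and Gli1 are themselves switched on by the pathway, so that their transcripts serve as its usual readouts. In the gut the epithelium makes the ligands and the mesenchyme responds, and smooth muscle formation depends on this exchange.

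The data were 10x Genomics droplet libraries from small intestine (SI, 2 libraries) and large intestine (LI, cecum included, 2 libraries) of untreated E12.5 embryos of the EYFP strain on the C57BL/6 background, with 2 independent experiments of 3 to 5 pooled embryos. The study also used E12.5 embryos in which every tissue carries EYFP, and the labels do not say what drives the reporter in the embryos sequenced here. Before loading, cells were sorted as live, CD45-, Ter119-, CD31-, EpCAM-, Itgb1+ and YFP+, which removes most leukocytes, red cells, endothelium and epithelium, the source of ligand. No group was treated or mutant, other label fields name adult or colonic tissue for the same libraries, and whether a given library was made with the 3′ or the 5′ kit was not stated.

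The 4 matrices held 24485 barcodes, of which 22094 were kept as single cells, with 31630548 to 62886525 unique molecular identifiers (UMIs, each standing for a captured transcript molecule) per library. LI replicate 1 was the shallowest, with a median of 4219.5 UMIs per cell against 8384 to 8834 in the other 3 libraries. Between 8 and 15 barcodes were shared by each pair of libraries. Cells were clustered without the 9 genes, the other pathway genes or the Hox genes, and clusters were grouped by marker genes. The mesenchyme fell into 3 groups: 2100 cells led by Bmp3 (Bmp3 mesenchyme, in which Adamdec1, the other gene used to find the group, was low), 1894 cells led by Tac2, Wnt4 and Slit2 (Tac2/Wnt4 mesenchyme), and the remaining mesenchyme, pooled as other mesenchyme. Beside them stood 4781 smooth muscle-like cells (Myh11, Cnn1, Actg2), 1317 mesothelial-like cells (Upk3b, Krt19) and 1239 neural-like cells, while 1539 cells met no class and were left out. In the mesenchymal and smooth muscle-like groups the summed level of 11 neural markers was 7.11 to 99.1 CPM (UMIs of a gene scaled to the same total in every sum of cells) against 2822 to 4071 CPM in neural-like cells.

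The positions of the genes are given on the mm10 build. Ptch1 lies at chr13:63508328-63573598, Gas1 at chr13:60174405-60177365, Hhip at chr8:79965851-80058006, Gli2 at chr1:118834132-119053619, Gli1 at chr10:127329882-127341974 and Boc at chr16:44485049-44558897, all on the minus strand. Smo at chr6:29735503-29761365, Cdon at chr9:35421128-35507652 and Gli3 at chr13:15463235-15730026 lie on the plus strand. Exons of Gli1 overlap those of Arhgap9 on the opposite strand, and no other of the 9 genes shares exonic sequence with an annotated neighbour.

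Over all mesenchyme, Ptch1 and Hhip were found in the same cells more often than independence gives, and each with Gas1 less often, as given below. For this reason the 250 bases upstream of their RefSeq start sites and that of Gas1 (GRCm38.p6, minus strand, 5′ to 3′) are shown. Capitals mark CCACC, the centre of the Gli binding motif GACCACCCA, or its reverse complement GGTGG. The Ptch1 window is chr13:63565736-63565985, within an intron of the longer Ptch1 transcripts and directly upstream of the start of a shorter one, the Hhip window is chr8:80058009-80058258 and the Gas1 window is chr13:60177536-60177785, both outside the annotated gene.
Ptch1: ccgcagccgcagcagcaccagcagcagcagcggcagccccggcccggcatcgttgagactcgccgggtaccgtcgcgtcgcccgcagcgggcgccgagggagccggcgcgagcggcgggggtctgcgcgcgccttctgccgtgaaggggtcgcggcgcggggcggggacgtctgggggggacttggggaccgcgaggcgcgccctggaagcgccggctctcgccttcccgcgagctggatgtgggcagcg
Hhip: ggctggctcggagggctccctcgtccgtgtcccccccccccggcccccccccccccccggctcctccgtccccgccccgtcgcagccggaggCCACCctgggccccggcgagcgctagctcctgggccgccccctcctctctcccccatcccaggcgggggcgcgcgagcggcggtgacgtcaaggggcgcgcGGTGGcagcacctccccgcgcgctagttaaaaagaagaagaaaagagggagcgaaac
Gas1: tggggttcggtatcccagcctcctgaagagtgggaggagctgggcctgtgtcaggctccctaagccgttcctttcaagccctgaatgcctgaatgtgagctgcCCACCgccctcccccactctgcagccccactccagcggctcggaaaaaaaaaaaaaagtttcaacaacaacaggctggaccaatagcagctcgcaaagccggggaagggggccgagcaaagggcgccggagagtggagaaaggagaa
The whole motif, searched on both strands, was in none of the 7 windows found for the 9 genes (Gli1 and Boc had no entry) and in 74 of 32851 promoters (0.225%). Its centre was in 5 of the 7, namely Gli2 with 3 matches, Hhip with 2, and Smo, Gli3 and Gas1 with 1 each. It was in 54.3% of all promoters, so its presence sets no gene of this set apart. Ptch1 and Cdon held no match in this window. The windows of Cdon (chr9:35451826-35452075) and Gli3 also lie within the annotated gene, as that of Ptch1 does, so they are not upstream of its outermost start.

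Transcripts of the readout genes Ptch1, Hhip and Gli1 were highest in Bmp3 mesenchyme and smooth muscle-like cells and lowest, among non-neural cells, in Tac2/Wnt4 mesenchyme, which in turn had high Gas1 and the highest Boc. Smo, the transducer, was nearly level over the mesenchymal and smooth muscle-like groups. The order of the groups thus differed between genes of one pathway, and it was read from each gene against itself, since levels of different genes depend on their capture.

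Ptch1, the ligand-binding receptor, measured 371 and 544 CPM in LI replicates 1 and 2 and 383 and 389 CPM in SI replicates 1 and 2 in Bmp3 mesenchyme. In Tac2/Wnt4 mesenchyme the same libraries gave 50.3, 58.8, 67.5 and 43.7 CPM. Every Bmp3 value was thus above every Tac2/Wnt4 value, with means of 422 ± 81.8 and 55.1 ± 10.3 CPM (SD, n = 4), and the fold difference was 7.09 (log2 difference 2.83 ± 0.31, SD over 4 libraries, on the scale of log2 of CPM plus 5 used for all group differences). Smooth muscle-like cells followed at 277 ± 46.6 CPM, other mesenchyme at 175 ± 22.6 CPM and mesothelial-like cells at 147 ± 31.0 CPM. Only the last 2 of these neighbours overlapped. Neural-like cells had 21.2 ± 6.68 CPM, with 13.7 CPM in the lowest library.

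Hhip, the decoy receptor and a pathway target, ranged most. Its levels in Bmp3 mesenchyme were 109 and 143 CPM in LI and 67.7 and 60.5 CPM in SI. In smooth muscle-like cells they were 63.2, 60.5, 38.8 and 43.9 CPM in the same order of libraries. Both ranges met at their ends, although within each library Bmp3 mesenchyme was the higher. Tac2/Wnt4 mesenchyme held 15 UMIs of Hhip in all, equal to 1.77, 0.594, 1.16 and 0.834 CPM, which was below neural-like cells (5.26 ± 2.19 CPM) in every library. The difference between Bmp3 and Tac2/Wnt4 mesenchyme was 15.6-fold (log2 3.96 ± 0.57), a figure that the added 5 CPM makes smaller.

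Gli1, a transcriptional effector whose own transcript depends on the pathway, was alike in 2 of the groups. Its levels were 39.1, 36.9, 34.0 and 31.5 CPM in smooth muscle-like cells and 41.4, 38.9, 29.0 and 28.2 CPM in Bmp3 mesenchyme, and the ranges overlapped. Other mesenchyme reached 23.5, 15.8, 17.4 and 12.9 CPM, all below both groups, and overlapped mesothelial-like cells at 16.6 ± 6.46 CPM. In Tac2/Wnt4 mesenchyme Gli1 stood at 7.95, 4.75, 6.37 and 1.67 CPM, 3.94-fold lower than in Bmp3 mesenchyme (log2 difference of Bmp3 over Tac2/Wnt4 1.98 ± 0.33). The lowest of these values lay within the range of neural-like cells, 0.430 to 1.97 CPM.

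Gli2 and Gli3, the factors that act before Gli1 is induced, did not follow this order. Gli2 was scarce throughout, at means of 9.37 to 14.8 CPM in the 5 non-neural groups, whose ranges all overlapped. Gli3 averaged 95.8 ± 35.1 CPM in smooth muscle-like cells, 82.9 ± 28.7 in other mesenchyme, 71.4 ± 14.1 in Tac2/Wnt4 mesenchyme, 59.6 ± 19.9 in Bmp3 mesenchyme and 42.3 ± 14.2 in mesothelial-like cells, and all 5 ranges overlapped their neighbours. Neural-like cells had 4.21 ± 1.58 CPM of Gli2 and 23.3 ± 4.15 CPM of Gli3. Library mattered for Gli3, with LI replicate 1 lowest in the 4 mesenchymal and muscle groups (38.9 to 53.9 CPM).

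Smo averaged 93.7 to 99.3 CPM in smooth muscle-like cells and the 3 mesenchymal groups, with the log2 difference of Bmp3 over Tac2/Wnt4 mesenchyme at -0.02 ± 0.13. Mesothelial-like cells stood above these groups in every library, at 128 ± 4.71 CPM, and neural-like cells below, at 57.0 ± 3.37 CPM.

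**Figure D1:**
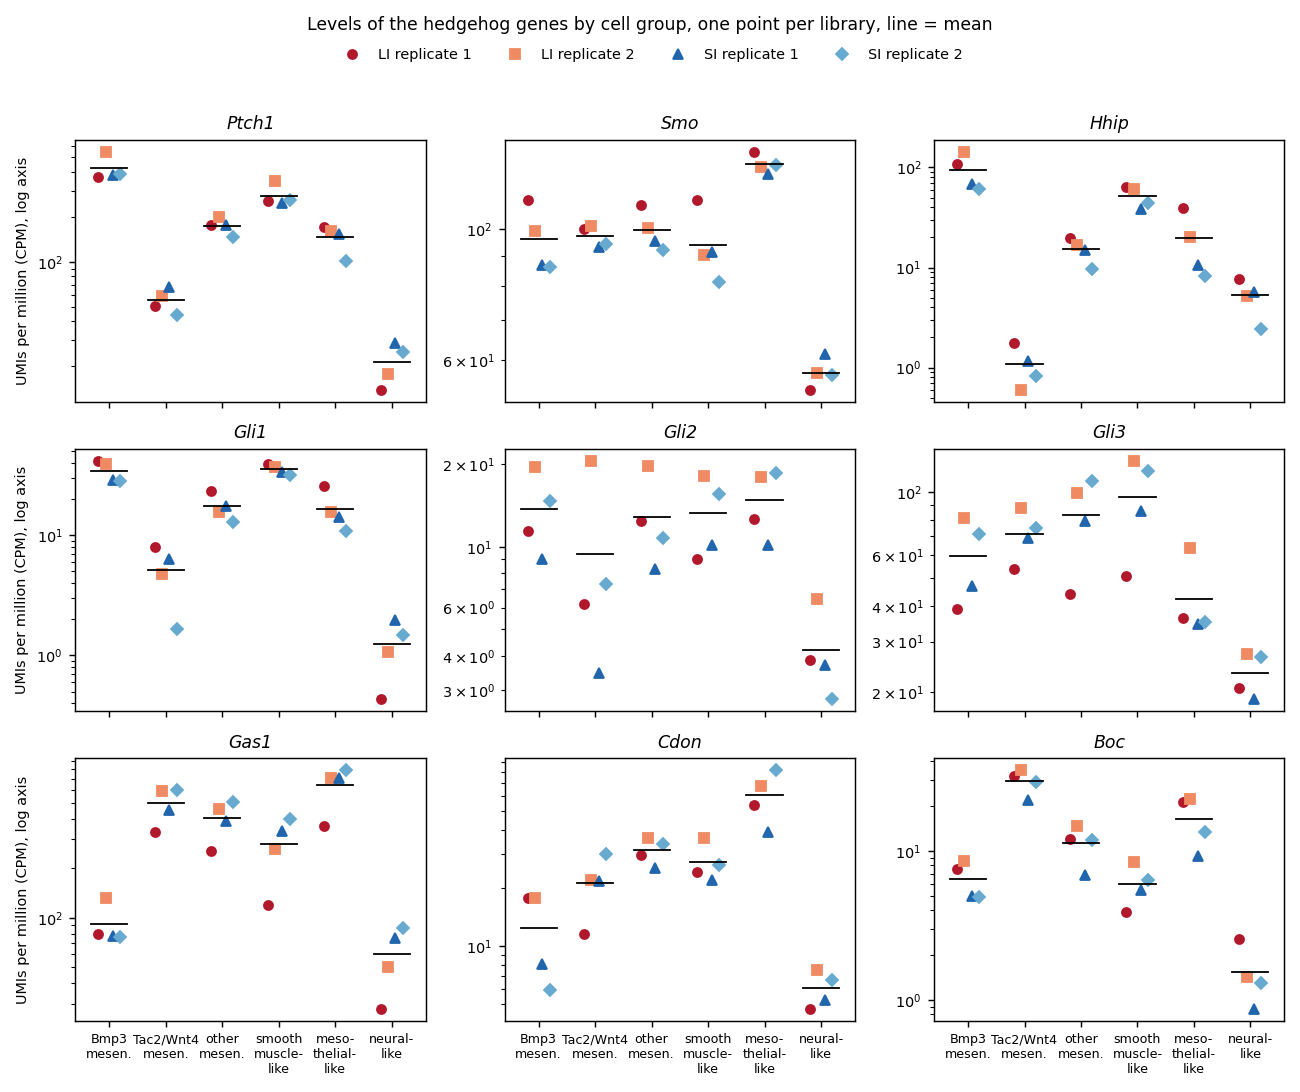
Level of each of the 9 genes (CPM, log axis) in the 6 cell groups, with a point for each of the 4 libraries and a line for their mean. Ptch1, Hhip and Gli1 peak in Bmp3 mesenchyme or smooth muscle-like cells and dip in Tac2/Wnt4 mesenchyme, whereas Gas1 and Boc are higher in Tac2/Wnt4 than in Bmp3 mesenchyme and Smo is close to level in the mesenchymal and smooth muscle-like groups, with mesothelial-like cells above and neural-like cells below.

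The co-receptors gave another order. Gas1, a membrane-anchored co-receptor, was high in mesothelial-like cells (361, 712, 705 and 789 CPM) and in Tac2/Wnt4 mesenchyme (332, 594, 455 and 603 CPM). It was low in Bmp3 mesenchyme, at 79.1, 132, 77.5 and 76.5 CPM, below every library of the other 2 mesenchymal groups. Against Tac2/Wnt4 mesenchyme this was 5.20-fold lower (log2 -2.38 ± 0.40). LI replicate 1, the shallow library, gave the lowest Gas1 in each group but Bmp3 mesenchyme. Boc, a relative of Cdon in the immunoglobulin superfamily, was highest in Tac2/Wnt4 mesenchyme at 31.8, 34.7, 22.0 and 28.9 CPM, against 6.53 ± 1.86 CPM in Bmp3 mesenchyme, 2.98-fold lower. Only the lowest Tac2/Wnt4 value was reached by another group, mesothelial-like cells at 16.5 ± 6.27 CPM. Boc had 11.3 ± 3.27 CPM in other mesenchyme and 6.02 ± 1.87 CPM in smooth muscle-like cells. Cdon was highest in mesothelial-like cells at 54.0, 67.8, 39.0 and 81.6 CPM, above all libraries of every other group, and stood at 31.3 ± 4.78 CPM in other mesenchyme, 27.2 ± 6.25 in smooth muscle-like cells, 21.3 in Tac2/Wnt4 mesenchyme (11.5 to 30.03 by library) and 12.4 ± 6.31 in Bmp3 mesenchyme, each overlapping the next. In other mesenchyme Gas1 had 402 ± 111 CPM and in smooth muscle-like cells 279 ± 121 CPM. In neural-like cells Gas1 had 60.2 ± 26.4 CPM, Cdon 6.04 ± 1.29 and Boc 1.55 ± 0.73 CPM.

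Counted over all 9 genes, 5 had no overlap between Bmp3 and Tac2/Wnt4 mesenchyme over the 4 libraries where 16.4% of 13154 genes tested had none. Ptch1, Hhip and Gli1 were the 3 higher in Bmp3 mesenchyme (all genes 6.24%) and Gas1 and Boc the 2 lower (10.1%). The remaining 4 (Gli2, Gli3, Smo and Cdon) overlapped. The median log2 difference of the 9 was -0.02, as was that of all genes, since the 2 directions cancelled. Against other mesenchyme, 5 of 9 did not overlap in Bmp3 mesenchyme (all genes 9.78%), with Ptch1, Hhip and Gli1 higher (2.68%) and Gas1 and Cdon lower (7.1%). In Tac2/Wnt4 mesenchyme 4 did not (12.6%), with Boc higher (6.01%) and Ptch1, Hhip and Gli1 lower (6.62%). In smooth muscle-like cells 3 did not (6.59%), Ptch1, Hhip and Gli1, all higher (2.24%, against 4.36% lower), and in mesothelial-like cells 2 did not (23.8%), Smo and Cdon, both higher (12% of all genes, against 11.9% lower), a share close to that of all genes. All 9 were lower in neural-like cells (37.7%, of which 22.4% lower and 15.3% higher). In bulk-like sums of this kind a group with fewer transcribing cells cannot be told apart from one with less RNA per cell, which the shares of cells address in part. Cells in G1 made up 21.0% to 56.5% of Bmp3 mesenchyme by library and a larger share of Tac2/Wnt4 mesenchyme in each library, and the part of the cell cycle in these differences was not tested beyond the G1 alternative.

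After each cell was thinned to 3000 UMIs, to set the libraries on one depth, the share of cells with a Ptch1 UMI was 65.8% ± 6.62 (SD, n = 4) in Bmp3 mesenchyme and 52.2% ± 5.03 in smooth muscle-like cells. It was 35.8% ± 3.63 in other mesenchyme, 33.9% ± 5.84 in mesothelial-like cells and 16.3% ± 3.93 in Tac2/Wnt4 mesenchyme. Neural-like cells, given as a cell type outside the mesenchyme, had 5.54% ± 1.75 at this equal depth. Unthinned, the shares were 88.3% in Bmp3 mesenchyme, 32.3% in Tac2/Wnt4 mesenchyme and 23.9% in neural-like cells, whose median depth of 11065 to 19853 UMIs exceeded the 4643 to 10165 of Bmp3 mesenchyme. Thinning left out 16.0% of cells in LI replicate 1 and 1.61% to 3.38% in the other libraries as too shallow.

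Hhip was found in 22.9% ± 9.22 of thinned Bmp3 mesenchyme cells (48.0% unthinned) and 13.1% ± 1.98 of smooth muscle-like cells. Tac2/Wnt4 mesenchyme had Hhip in 1 cell of each library, 0.235% ± 0.0622, under the 1.83% ± 0.927 of neural-like cells. Gli1 was detected in 10.8% ± 1.13 of Bmp3 mesenchyme, 10.3% ± 0.681 of smooth muscle-like cells, 4.84% ± 1.42 of other mesenchyme and 1.12% ± 0.616 of Tac2/Wnt4 mesenchyme, whose range of 0.581% to 2.00% met the 0 to 0.941% of neural-like cells. After thinning, both LI libraries had no neural-like cell with a Gli1 UMI, 0 of 209 and 0 of 261, which allows shares of up to 1.44% and 1.15%. These are shares of cells with a captured molecule, and a cell without one may still express the gene. Gas1 was detected in 71.8% ± 9.22 of Tac2/Wnt4 mesenchyme and 20.6% ± 3.35 of Bmp3 mesenchyme, with neural-like cells at 14.8% ± 6.71, and Boc in 8.46% ± 1.92 and 1.93% ± 0.753 of the 2 groups, with neural-like cells at 0.427% ± 0.498.

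**Figure D2:**
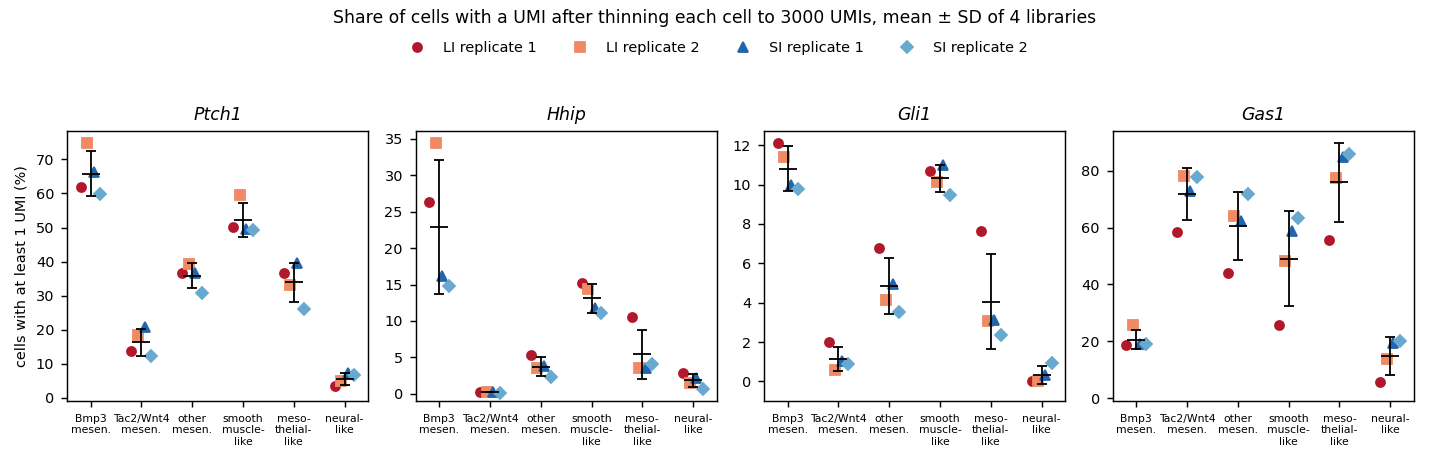
Share of cells with at least 1 UMI of Ptch1, Hhip, Gli1 and Gas1 (percent) after thinning to 3000 UMIs per cell, by cell group, with a point for each library and bars for the mean ± SD of 4 libraries. Ptch1 is detected in 65.8% of Bmp3 mesenchyme and 16.3% of Tac2/Wnt4 mesenchyme, Gas1 in 20.6% and 71.8%, and neural-like cells are shown as a cell type outside the mesenchyme.

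Read the other way, 1190 thinned cells of the 6 groups held a Gli1 UMI. Smooth muscle-like cells supplied 39.6% ± 13.3 of them (SD over 4 libraries) while making up 23.3% ± 7.35 of cells. Other mesenchyme supplied 34.8% ± 10.8 and was 44.2% ± 8.06 of cells, Bmp3 mesenchyme 18.7% ± 3.40 and 10.5% ± 1.14, and Tac2/Wnt4 mesenchyme only 20 of the cells while being 9.29% ± 1.80 of all. Mesothelial-like cells supplied 62 of the Gli1 cells, 4.82% ± 4.95, while being 6.42% ± 3.68 of all. Cells with a Gli1 transcript were thus spread over muscle, mesenchyme and mesothelial-like cells, with few in Tac2/Wnt4 mesenchyme. The 1449 cells with Hhip came to 30.9% ± 8.44 from Bmp3 mesenchyme and 40.5% ± 13.5 from smooth muscle-like cells.

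Neural-like cells also gave a measure of transcripts that are free in the droplets, at their own depth (median 11065 to 19853 UMIs by library). The other groups were shallower, and the part of free transcripts in them was not measured. In neural-like cells the mesenchymal genes Col1a1 and Pdgfra stood at 1.15% and 1.22% of their level in all mesenchyme. Col3a1 and Acta2 stood at 2.47% and 2.44%. For the 9 genes this percentage was 7.21 for Gli1, 10.6 for Ptch1, 11.9 for Boc, 16.6 for Gas1, 19.4 for Hhip, 22.9 for Cdon, 32.3 for Gli3, 34.7 for Gli2 and 58.4 for Smo. By library the percentage ran from 1.65 to 3.89 for Col3a1 and from 1.84 to 3.53 for Acta2. That of Gli1 ran from 1.80 to 10.8 and overlapped both, while the other 8 genes were above all 4 mesenchymal genes in every library. The neural-like cells held 24 UMIs of Gli1 and 25 of Boc in all.

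The next question was whether the genes occurred in the same cells. Co-detection was the number of cells with a UMI of both genes divided by the number expected from their separate shares, per library after thinning, so that 1 means independence. Over all mesenchyme (the 3 mesenchymal groups together), Ptch1 and Hhip were found together in 517 cells against 295 expected, a ratio of 1.75 ± 0.09 (SD, n = 4). Ptch1 and Gli1 gave 1.56 ± 0.15, and Hhip and Gli1 gave 2.53 ± 0.36, with 105 cells against 42.0. The 3 readout genes were therefore found in the same cells more often than independence gives, in each of the 4 libraries.

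Pairs of a readout gene with Gas1, and some with Boc or Cdon, fell below 1. Hhip and Gas1 were found together in 205 cells against 415 expected (ratio 0.49 ± 0.06), Hhip and Boc in 10 against 30.3 (0.33 ± 0.23), Gli1 and Gas1 in 249 against 349 (0.72 ± 0.12), and Ptch1 and Boc in 130 against 179 (0.71 ± 0.09). Ptch1 and Gas1 gave 0.81 ± 0.04. Other pairs lay on both sides of 1 by library, from 0.716 to 1.11 for Ptch1 and Cdon, 0.671 to 1.13 for Gli1 and Cdon and 0.312 to 1.03 for Gli1 and Boc. Among the co-receptors, Gas1 and Boc gave 1.23 ± 0.05 and Gas1 and Cdon 1.13 ± 0.07, over 1 in each library, while Cdon and Boc ran from 0.863 to 2.01. Pairs were kept by the expected cells of all libraries together, so single libraries may hold few: in SI replicate 1 there were 4.48 expected cells for Cdon and Boc, which gave the 2.01, 4.06 for Hhip and Boc and 3.90 for Gli1 and Boc. Of the 36 pairs, 7 were over 1 and 7 under 1 in all 4 libraries.

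The ratios were also taken within groups. Within Bmp3 mesenchyme, where most cells held Ptch1, the ratio of Ptch1 and Hhip was 1.10 ± 0.05 and that of Ptch1 and Gli1 1.21 ± 0.07. Within smooth muscle-like cells they were 1.22 ± 0.05 and 1.12 ± 0.07. Other mesenchyme had ratios close to those over all mesenchyme, 1.64 ± 0.08 for Ptch1 and Hhip, 1.38 ± 0.10 for Ptch1 and Gli1, 2.66 ± 0.40 for Hhip and Gli1 (44 cells against 17.0 expected) and 0.61 ± 0.07 for Hhip and Gas1. That group pools several clusters, and the cluster with high histone transcripts had 219 CPM of Ptch1 and 26.7 CPM of Hhip, against 151 and 6.96 CPM in the largest one and 80.4 CPM of Ptch1 in the one led by Foxd1. Pairs with Gas1 were read within the groups too. Gli1 and Gas1, at 0.72 over all mesenchyme, gave 1.18 ± 0.47 in Bmp3 mesenchyme (0.479 to 1.51 by library), 0.999 ± 0.077 in smooth muscle-like cells and 0.81 ± 0.15 in other mesenchyme, of which only the last was under 1 in each library. In Tac2/Wnt4 mesenchyme it was 0.65 ± 0.02, from 9 cells against 13.8 expected. Hhip and Gas1 gave 0.96 ± 0.13 in Bmp3 mesenchyme and 0.92 ± 0.12 in smooth muscle-like cells, on both sides of 1 by library. In Tac2/Wnt4 mesenchyme the pairs of Hhip had too few expected cells to be given.

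Stated by cells with a Gli1 UMI, 79.5% ± 8.79 of them in Bmp3 mesenchyme also held Ptch1, against 64.2% ± 6.48 of the cells without one. In other mesenchyme the shares were 49.2% ± 3.81 and 35.1% ± 3.59 for Ptch1, and 9.70% ± 2.93 and 3.40% ± 1.09 for Hhip. The ranges over libraries of both genes were apart in other mesenchyme. In Bmp3 mesenchyme they overlapped for Ptch1, which met at 69.8% to 73.2%, and for Hhip (28.6% ± 13.3 against 22.2% ± 8.69). They also overlapped in smooth muscle-like cells, the group with the most Gli1 cells (470), for Ptch1 (58.4% ± 9.22 against 51.4% ± 4.58) and for Hhip (10.7% to 26.7% by library against 10.7% to 14.5%). Ranges over libraries do not pair the cells with and without Gli1 that come from one library. Taken within libraries, the ratio of Ptch1 and Gli1 given above averaged over 1 in Bmp3 mesenchyme and in smooth muscle-like cells. With few Gli1 cells, Ptch1 was at 13.5% against 16.2% in Tac2/Wnt4 mesenchyme (20 cells). In mesothelial-like cells (62 cells) Ptch1 was at 31.1% against 33.8%, with overlap in both groups.

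**Figure D3:**
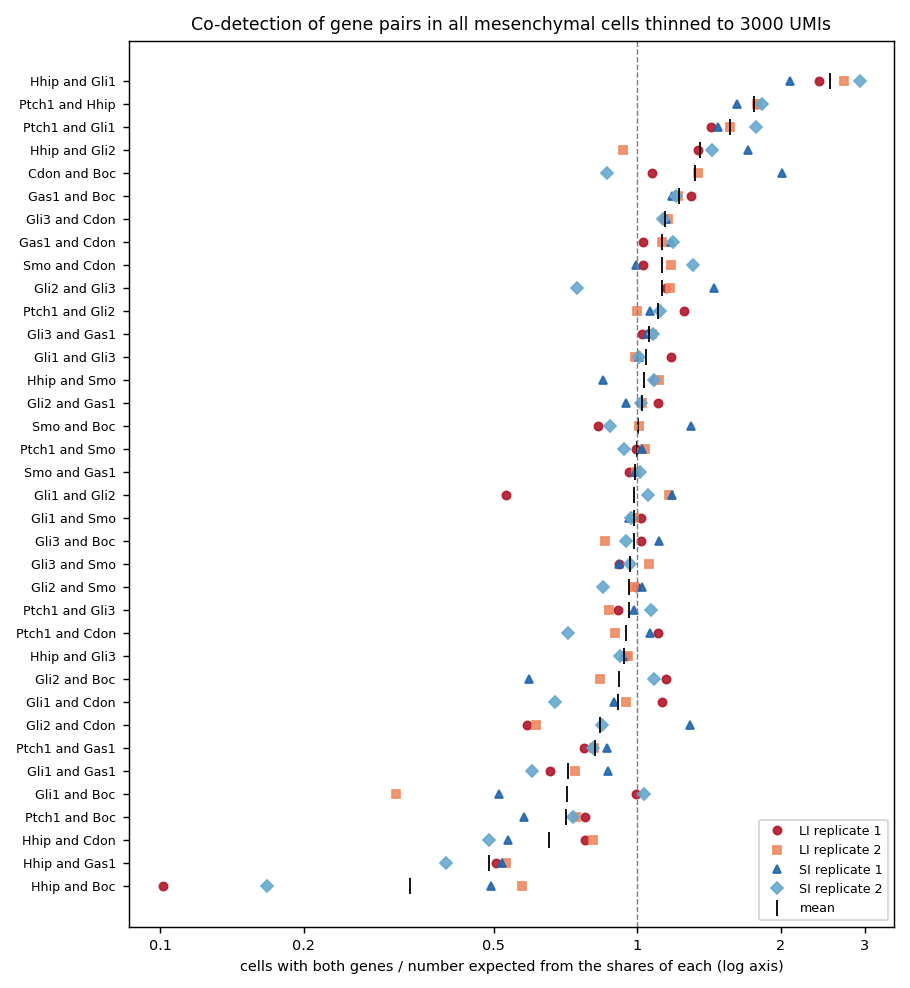
Observed cells with both genes of a pair divided by the number expected (log axis, dashed line at 1 for independence), for the 36 pairs over all mesenchyme after thinning to 3000 UMIs, with a point for each library and a tick for their mean. Pairs among Ptch1, Hhip and Gli1 lie over 1, with Hhip and Gli1 at 2.53, and pairs of Hhip with Gas1 or Boc lie under 1, at 0.49 and 0.33.

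The rest of the pathway was read from a list of 46 genes. Ligand transcripts were nearly absent from these cells, which had been sorted as EpCAM-. Shh had 2 UMIs in all 6 groups and Ihh between 1 and 11 per group, while Dhh, the ligand of Schwann cells, had 22 UMIs in neural-like cells (1.14 ± 0.54 CPM) and no more than 2 in any other group, with the reservation that its exons overlap those of Rhebl1 on the same strand.

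Of the 41 listed genes with enough counts, 7 were higher and 8 lower in Bmp3 than in Tac2/Wnt4 mesenchyme with no overlap, against 6.24% and 10.1% of all genes. Among the higher ones were Bcl2, Ccnd2, Bmp4 and the forkhead factors Foxf1, Foxf2 and Foxl1, and the lower ones were Disp1, Scube3, Gpc3, Gnas, Ift52, Kif3a, Arl13b and Osr1. Foxf1, a forkhead factor of gut mesenchyme that answers to hedgehog, stood at 501 ± 131 CPM in Bmp3 mesenchyme, 560 in smooth muscle-like cells and 75.3 ± 37.3 CPM in Tac2/Wnt4 mesenchyme. Foxf2 stood at 104, 89.0 and 6.30 CPM in the same groups, the order that Ptch1 had. Foxl1, known from cells beneath the epithelium, had 23.6 CPM in Bmp3 mesenchyme against 0.26 CPM in Tac2/Wnt4 mesenchyme, and Bmp4 had 81.6 against 26.5 CPM. Against other mesenchyme, 5 of the 41 were higher and 3 lower in Bmp3 mesenchyme (2.68% and 7.1% of all genes), and 4 were higher and 4 lower in Tac2/Wnt4 mesenchyme (6.01% and 6.62%).

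The genes whose levels ran most like each of the 9 over the 24 sums of group and library were taken by Pearson's r, as a description of points that share libraries and cell groups. Ptch1 ran closest to Foxf2 (r = 0.98), Fendrr, a long noncoding RNA next to Foxf1 (0.96), and Phldb2 (0.95). Gli1 ran with Ralgps2 (0.96) and with Saa1 and Saa2 (0.97 and 0.95), and Hhip with Exoc2 (0.92) and the same pair (0.92 for both), which are near-identical paralogs whose reads may be split between them. For the other 6 genes the closest were Mbnl1 for Gli2 (0.87), Ttc28 for Gli3 (0.93), Zdbf2 for Smo (0.97), Smoc2 for Gas1 (0.94), Stim1 for Cdon (0.93) and Gadd45b for Boc (0.95). With a pseudocount of 1 CPM, 21 of the 27 genes taken (3 for each) were taken again, and Saa1 and Saa2 for Hhip, Ralgps2 for Gli1 and Stim1 for Cdon were not. Within the set, Ptch1 and Gli1 had r = 0.97 and Ptch1 and Hhip 0.85, while Ptch1 and Gas1 had 0.19 and Hhip and Boc -0.29.

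SI and LI were then compared on UMI sums per library, the contrast that the labels give, with edgeR's quasi-likelihood test and Benjamini-Hochberg adjustment over all genes. Over all mesenchyme none of the 9 genes passed an adjusted p of 0.05, and none had an unadjusted p below 0.05, where 3.35% of 13955 genes passed. DESeq2 called none of them either. Ptch1 measured 186 and 241 CPM in LI and 202 and 183 CPM in SI, with a log2 difference of SI over LI of 0.01 ± 0.18 (SE) and an interval of 2 SE from -0.35 to 0.38. Smo had -0.03 ± 0.17, from -0.36 to 0.30. Gli1 had -0.22 ± 0.23 and Hhip -0.43 ± 0.19, the latter with an interval from -0.82 to -0.04 and an adjusted p of 0.30. The labels do not tie each library to one of the 2 experiments of pooled embryos, so p-values here measure only the spread between these samples, which may in part be technical.

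Within the groups, 2 of 9 genes passed in Bmp3 mesenchyme, where 3.67% of 11281 genes did, and both were lower in SI. Hhip had 109 and 143 CPM in LI and 67.7 and 60.5 CPM in SI, a log2 difference of -0.85 ± 0.19 (SE) with an adjusted p of 0.0432 by edgeR. Cdon had 17.8 CPM in both LI libraries and 8.07 and 5.88 CPM in SI, a log2 difference of -1.23 ± 0.29 with an adjusted p of 0.0496 by edgeR. Neither pair of ranges overlapped, nor did those of Gli1, which was not called, and the share of all genes without such overlap was not counted. Other measures of this group moved with region too. Its cells in G1 were 44.1% and 56.5% in LI and 21.0% and 39.4% in SI, the summed level of 5 pericyte markers was 33.0 and 73.5 CPM in LI and 97.1 and 253 CPM in SI, and that of 10 mesothelial markers was 8.27 and 1.37 CPM in SI and higher in both LI libraries, up to 45.7 CPM. In G1 cells alone Hhip passed with a log2 difference of -1.06 (adjusted p = 0.0328 by edgeR) and Cdon did not (log2 -1.003, adjusted p = 0.188 by edgeR). DESeq2 likewise called Hhip (adjusted p = 0.0261) and not Cdon (adjusted p = 0.131). Summed neural, epithelial, endothelial, immune and Tac2/Wnt4 markers of this group were also lower in both SI libraries than in both LI libraries. Its cell cycle markers were higher in SI. The part of the markers was not tested. Both calls sat at the threshold: without SI replicate 2 the adjusted p was 0.398 for Hhip and 0.357 for Cdon, without SI replicate 1 it was 0.110 for Hhip, and over 12 alternatives Hhip passed in 7 and Cdon in 6, with log2 differences between -1.06 and -0.68 and between -1.49 and -0.98. Without the shallow LI replicate 1 both passed, in a fit that takes the spread from SI and assumes the lone LI library to vary alike.

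No gene of the 9 passed in Tac2/Wnt4 mesenchyme (0.595% of genes), other mesenchyme (3.72%), smooth muscle-like cells (1.26%), mesothelial-like cells (1.3%) or neural-like cells (0.328%) under edgeR. Hhip in Tac2/Wnt4 mesenchyme and Gli1 and Boc in neural-like cells had too few counts to be tested. With a replicate block, given at the end, Gas1 passed in smooth muscle-like, neural-like and mesothelial-like cells and Hhip in mesothelial-like cells. The labels do not tie replicate numbers to an experiment. Calls over all genes rose with the block too, from 154 to 873 in smooth muscle-like cells. Hhip also had lower levels in both SI libraries than in both LI libraries in 3 further groups, none past the threshold. Smooth muscle-like cells had 63.2 and 60.5 CPM in LI against 38.8 and 43.9 CPM in SI (log2 -0.44). Other mesenchyme had 19.7 and 16.8 against 15.0 and 9.61 CPM (log2 -0.41). Mesothelial-like cells had 39.1 and 20.3 against 10.6 and 8.29 CPM (log2 -1.58 ± 0.39, adjusted p = 0.0772 by edgeR). Gli1 was likewise lower in both SI libraries in Bmp3 mesenchyme and smooth muscle-like cells. The share of all genes that separate so was not counted. In mesothelial-like cells Hhip did pass with no filter on low counts (log2 -1.61, adjusted p = 0.00032 by edgeR). Without LI replicate 2 its log2 difference there was -2.0001, in a fit where a lone LI library is assumed to vary like SI. In these cells the summed level of 9 mesenchyme markers was 1403 and 2378 CPM in LI and 2487 and 3489 CPM in SI. That of 9 smooth muscle markers was 755 and 511 CPM in LI and 342 and 395 CPM in SI. How far these markers bear on Hhip was not tested. In G1 cells alone Hhip passed in other mesenchyme (log2 -1.59, adjusted p = 0.0467 by edgeR). The thinned share of Bmp3 mesenchyme cells with Hhip was 30.4% ± 5.73 in LI and 15.5% ± 0.92 in SI (n = 2 each), and the exact 2-sided permutation p was 0.333, the smallest that 2 libraries against 2 allow.

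Whether the region effect itself differed between a group and other mesenchyme was tested in a model of all 6 groups by edgeR. Gas1 and Cdon passed in Bmp3 mesenchyme (1.46% of 13154 genes), Gas1 in smooth muscle-like cells (0.836%), Gli3 in mesothelial-like cells (3.08%) and Gas1 and Ptch1 in neural-like cells (14.7%), and none of the 9 in Tac2/Wnt4 mesenchyme (0.38%). Hhip was not among them, so that its lower level in SI was not shown to be particular to Bmp3 mesenchyme.

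Calls on Gas1 varied with the libraries, the filter and the use of a replicate block. In smooth muscle-like cells it had 120 and 261 CPM in LI and 335 and 401 CPM in SI, a log2 difference of 1.09 ± 0.33 with an adjusted p of 0.246 by edgeR, and with no filter on low counts it passed (log2 1.11, adjusted p = 4.2e-06 by edgeR). The summed level of 9 smooth muscle markers in these cells was 1446 and 5542 CPM in LI and 4967 and 10293 CPM in SI, and in LI replicate 1 it was below the 2157 CPM of Tac2/Wnt4 mesenchyme. How far this bears on the region differences of smooth muscle-like cells was not tested. When LI replicate 2 was left out, LI was represented by the shallow replicate 1 alone. Calls then rose among the 9, and over all genes in all mesenchyme as well. Over all mesenchyme the log2 difference in that fit was 0.77 for Gas1 and 0.99 for Gli3. LI replicate 1 had the lowest Gas1 in 5 of the 6 groups and the lowest Gli3 in 4 of them, and the part of its depth in this was not tested.

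**Figure D4:**
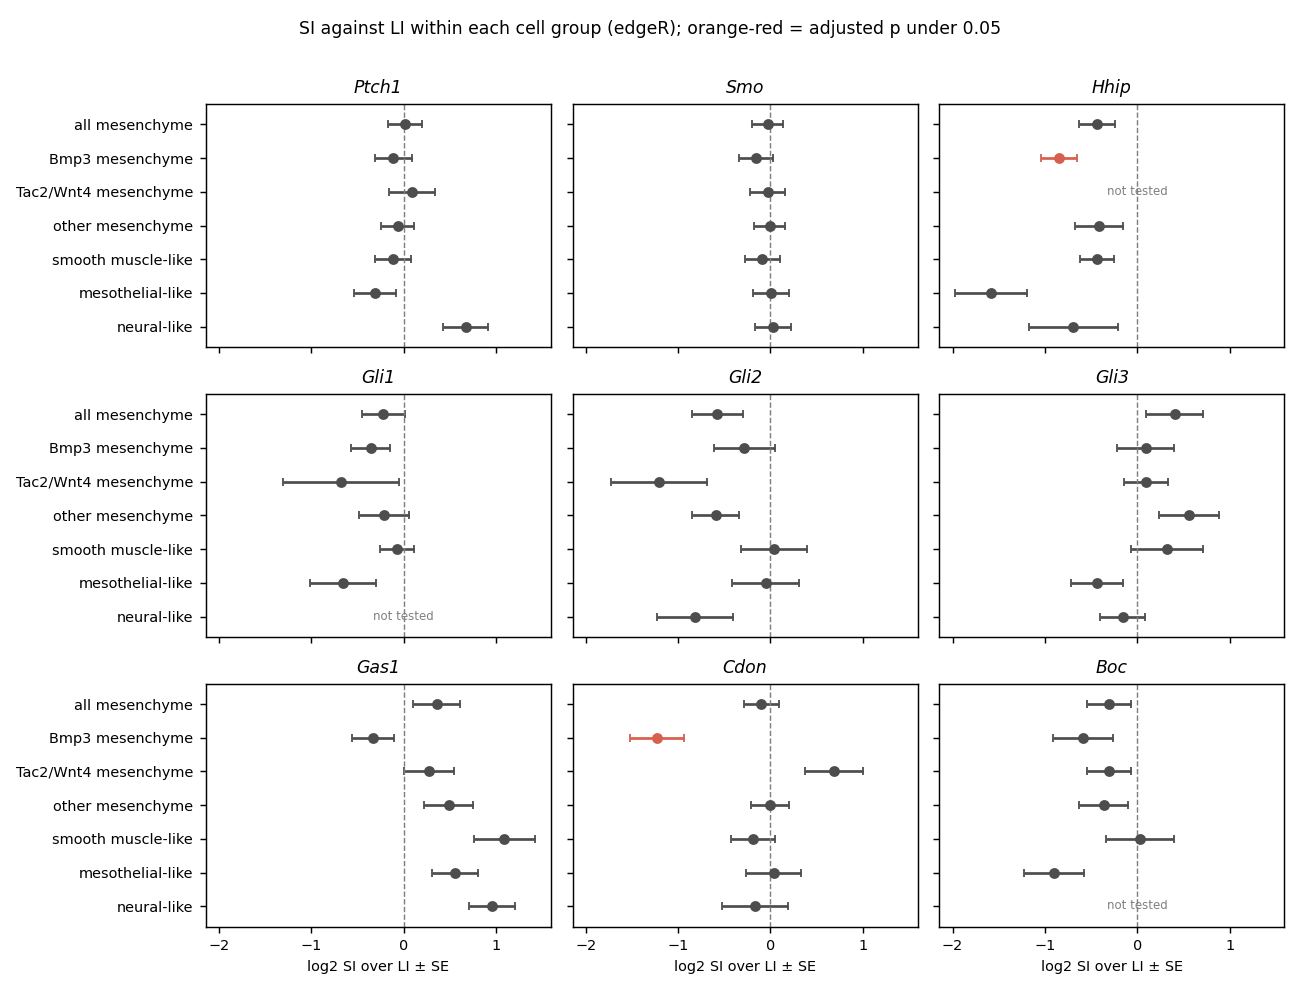
Difference between regions for the 9 genes over all mesenchyme and in each group (log2 of SI over LI from edgeR, bars ± SE), orange-red where the adjusted p was under 0.05. Hhip and Cdon in Bmp3 mesenchyme are the 2 coloured points, at -0.85 and -1.23, and Ptch1 and Smo over all mesenchyme lie at 0.01 and -0.03.

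The 46 other pathway genes were read in the same fits. Over all mesenchyme 2 of 41 tested passed, where 3.35% of all genes did, both higher in SI: Ccnd1, a G1 cyclin (log2 0.76, adjusted p = 0.0498 by edgeR, from 47.4 and 47.5 CPM in LI to 72.5 and 72.0 CPM in SI), and Mycn (8.50 and 13.1 against 20.7 and 27.0 CPM, log2 1.29, adjusted p = 0.0287 by edgeR). The summed level of 7 cell cycle markers over all mesenchyme was 1416 and 1316 CPM in LI and 1760 and 1512 CPM in SI, and cells in G1 were 51.8% and 61.6% in LI and 30.4% and 48.7% in SI, and their part in these calls was not tested. In Bmp3 mesenchyme 4 of 39 passed (3.67% of all genes), with the glypican Gpc6 (log2 1.00) and Mycn (2.40) higher in SI and the zinc finger factors Osr1 (-4.53) and Sall1 (-3.42) lower. Sall1 there had 8.46 and 10.5 CPM in LI and 0.769 and 0.821 CPM in SI. It was also lower in SI in smooth muscle-like cells, the only call of 39 (1.26% of all genes), at 5.13 and 4.05 against 0.0908 and 0.0642 CPM.

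In other mesenchyme 2 of 41 passed (3.72% of all genes). Bmp4, a ligand that hedgehog induces in gut mesenchyme, was lower in SI at 18.8 and 16.2 CPM than in LI at 46.3 and 50.1 CPM (log2 -1.30 ± 0.19, adjusted p = 0.00855 by edgeR), and Ccnd1 was higher in SI (log2 0.87). In other mesenchyme the summed level of 9 smooth muscle markers was 633 and 1087 CPM in LI and 1284 and 2121 CPM in SI. Summed mesothelial markers were lower in both SI libraries and pericyte markers higher. Cells of that group in G1 were 51.6% and 60.4% in LI and 27.5% and 46.2% in SI. The part of these measures in the calls was not tested. Bmp4 in Bmp3 mesenchyme had 82.0 and 72.9 CPM in LI and 82.1 and 89.3 CPM in SI, and its log2 difference of 0.28 did not pass. Bcl2 (-1.38) and Ccnd1 (-1.40) were lower in SI in mesothelial-like cells, of 34 tested (1.3% of all genes), and Ccnd2 (-1.83) in neural-like cells, of 33 tested (0.328%). In Tac2/Wnt4 mesenchyme edgeR called 0 of 35, with 1 at an unadjusted p below 0.05. Of the targets higher in Bmp3 than in Tac2/Wnt4 mesenchyme, Bmp4, Bcl2 and Ccnd2 were thus called in one group each, while Foxf1, Foxf2 and Foxl1 were not called between the regions in any group tested. The scaling factors of the fits raised the log2 difference of SI over LI above that of plain CPM by a median of 0.13 in Bmp3 mesenchyme, 0.15 over all mesenchyme and 0.16 in other mesenchyme.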

How the data were processed

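Single-cell UMI counts per gene were analysed in 4 libraries (SI and LI, 2 each). The authors made the deposited counts with Cell Ranger 3.1.0 on mm10, and Seurat 3 is named in their processing notes. Barcodes with at least 1000 genes and at most 10% mitochondrial counts were kept. Scrublet's own threshold marked 1 to 6 barcodes per library, so the highest scores were removed at 0.8% per 1000 cells (183 to 348 barcodes). Cells were integrated and clustered in Seurat 5.3.0 (30 components, resolution 0.3) on 1960 of 2000 variable genes, after leaving out Hox and hedgehog genes, and named from marker lists. Groups come from the same cells, so no p is given between them. UMIs were summed per library and group. Regions were compared with edgeR 4.0.16 (TMM, filterByExpr, quasi-likelihood test, adjusted p under 0.05), and the difference of region effects in a model with library as a block. Group levels were compared on log2 of CPM plus 5. Shares and co-detection used cells thinned to 3000 UMIs, and pairs with under 5 expected cells over the 4 libraries together were left out. Limits from counts of 0 (3 counts) cover counting error only. In data simulated from all mesenchyme (13955 genes) the edgeR step recovered 50% of genes changed by 1 on the log2 scale, 84% at 2, 98% at 3 and 100% at 4, with 15 false calls.

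All 9 genes are named, with their levels in each group given singly or as a range. Of the pathway list, genes called between regions are named, with Shh, Ihh, Dhh, Foxf1, Foxf2, Foxl1 and Bmp4. Some other pathway genes without overlap between Bmp3 and Tac2/Wnt4 mesenchyme are named too, chosen after their values were seen. For likeness, the 3 genes with the highest r at a mean of 10 CPM or more were taken. The genes, lists and tests were chosen with earlier results of these data known. Files of replicates differed by more than sampling noise (chi-square per degree of freedom 2.93 to 43.7). Promoter sequences are from RefSeq. Python 3.11.15, R 4.3.3, DESeq2 1.42.0 and scanpy 1.11.5 were used.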

Additional observations from a re-analysis of the deposited data

Results flagged for a closer look

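In a model of all 6 groups, the region effect (log2 of SI over LI) of 6 pairs of gene and group differed from that in other mesenchyme at an adjusted p under 0.05 by edgeR's quasi-likelihood test. In Bmp3 mesenchyme, where 1.46% of 13154 genes differed, Gas1 did so by -0.78 ± 0.14 (SE, adjusted p = 0.0037 by edgeR), with 79.1 and 132 CPM in LI and 77.5 and 76.5 CPM in SI against 253 and 462 and then 386 and 508 CPM in other mesenchyme. It passed in 9 of 11 alternatives and not without SI replicate 2 (-0.57, adjusted p = 0.202) or in G1 cells (-0.57, adjusted p = 0.141). Cdon in Bmp3 mesenchyme differed by -1.21 ± 0.30 (adjusted p = 0.0463 by edgeR) and passed in 5 of 11. Without SI replicate 2 it was -0.73 (adjusted p = 0.688), without LI replicate 1 -1.13 (adjusted p = 0.236), without LI replicate 2 -1.42 (adjusted p = 0.251) and in G1 cells -1.09 (adjusted p = 0.199), none a call by edgeR.

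Gas1 in smooth muscle-like cells (0.836% of genes) differed by 0.65 ± 0.13 (adjusted p = 0.0131 by edgeR, 7 of 11 alternatives), the opposite direction to Bmp3 mesenchyme. Gli3 in mesothelial-like cells (3.08% of genes) differed by -0.99 ± 0.24 (adjusted p = 0.0274 by edgeR, 8 of 11), with 36.1 and 63.5 CPM in LI and 34.5 and 35.1 CPM in SI. In neural-like cells, where 14.7% of genes differed, Gas1 differed by 0.57 ± 0.15 (adjusted p = 0.0150 by edgeR, 7 of 11) and Ptch1 by 0.80 ± 0.27 (adjusted p = 0.0457 by edgeR, 1 of 11). Leaving out a library ended the call for Gas1 in smooth muscle-like cells without LI replicate 1, SI replicate 1 or SI replicate 2 (adjusted p = 0.276, 0.0570 and 0.132), for Gli3 without LI replicate 1 or SI replicate 2 (0.134 and 0.276), for Gas1 in neural-like cells without LI replicate 1, LI replicate 2 or SI replicate 1 (0.0624, 0.168 and 0.116) and for Ptch1 without each of the 4 in turn (0.0654 to 0.188, edgeR throughout). No gene of the 9 was called different in Tac2/Wnt4 mesenchyme (0.38% of genes).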

How the results depend on the processing

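Levels were stable: 555 of the log2 differences between groups recomputed under the alternatives moved by less than the spread over libraries, 39 moved by more and none changed sign. Region calls were not. Over all mesenchyme the 468 genes called became 703 with DESeq2, 1545 with no filter on low counts and 532 to 1367 when a library was left out, and calls among the 9 became 1 in G1 cells (Hhip, log2 -1.01, adjusted p = 0.0414) and 0 to 2 without a library. Over the 6 groups the 2 calls became 6 with no filter, 0 with sums thinned to equal totals, 0 with doublets removed at 1.6% per 1000 cells, 0 at resolution 0.6 and 0 to 11 without a library. The 6 differences of region effects became 1 at equal totals, 3 in G1 cells and 1 to 4 without a library. Small region effects over all mesenchyme changed sign. Without a library Ptch1 ran from -0.16 to 0.16, Gli3 from -0.040 to 0.99, Smo from -0.13 to 0.040 and Cdon from -0.23 to 0.016. Ptch1 became -0.23 and Cdon 0.032 in G1 cells, and Ptch1 -0.045 with equal cells of each group. Pairs over 1 in all libraries rose from 7 to 17 unthinned, and from 7 to 8 to 10 without a library, since fewer libraries then had to agree. Gli3 and Cdon gave a ratio of 0.965 at 2000 UMIs, and Hhip and Gli3 1.00 at 2000 UMIs and 1.01 unthinned. The cause of these changes was not tested.

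Replicate numbers were not taken as pairs, since the labels do not tie them to an experiment. Deviations of same-numbered SI and LI libraries correlated at r = 0.17 to 0.40 over genes, with 2 pairs. With a replicate block 1329 genes were called over all mesenchyme, 0 of the 9 among them. Over the 6 groups 6 calls were made among the 9. These were Hhip and Cdon in Bmp3 mesenchyme, Hhip in mesothelial-like cells, and Gas1 in mesothelial-like, neural-like and smooth muscle-like cells (log2 1.18, adjusted p = 0.00097 by edgeR in the last). The block raised calls over all genes too, from 414 to 1678 of 11281 in Bmp3 mesenchyme and from 154 to 873 of 12205 in smooth muscle-like cells.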
